A study of Mus musculus with 8 samples.

Results

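Small leucine-rich proteoglycans (SLRPs) are a family of secreted matrix proteins, and 10 of them were examined in cultured mouse tendon stem cells (TSCs): Dcn (decorin), Bgn (biglycan), Aspn (asporin), Fmod (fibromodulin), Lum (lumican), Kera (keratocan), Prelp, Omd (osteomodulin), Ogn (osteoglycin, also called mimecan) and Podn (podocan). They were chosen by gene symbol, with earlier results of these data known, and all 10 were found among the 19301 genes of the expression table. The mRNA came from primary TSCs that had been released from the patellar tendon of C57BL/6J mice with collagenase. Cells of the HFHG group were kept for 4 days in high glucose medium with palmitic acid, a saturated fatty acid, and cells of the LG group were kept for the same time in low glucose medium with the DMSO vehicle. Each group had 4 biological replicates, and the comparison asks how a culture that imitates the raised sugar and fat of diabetes changes the transcripts of these cells. Both groups started from the same kind of primary culture, with no genetic change. The age and sex of the mice, and the number of animals behind each replicate, are not given in the sources used here. If the replicates share animals, the p-values measure only the spread between cultures.

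An SLRP has a small protein core built of leucine-rich repeats, a curved solenoid that binds collagen, and it usually carries chondroitin, dermatan or keratan sulfate chains. In tendon these proteins sit on the surface of collagen fibrils, where they limit the lateral fusion of fibrils and set their diameter. They also bind growth factors of the TGF-beta family and, when released from the matrix, receptors of innate immunity. Decorin is usually the most abundant proteoglycan of adult tendon. Biglycan and fibromodulin are known as parts of the niche that keeps tendon stem cells in their state.

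The libraries held 35385644 to 37362725 reads in HFHG and 34308108 to 36308533 reads in LG. Levels are given as FPKM, the reads of a gene divided by its length and by the depth of the library, so that levels of different genes can be set side by side. The reads behind each FPKM were recovered with the smallest gene length that makes them whole in every library. Whole reads for 19301 of 19301 genes thus follow from the method and are no check of it. A factor common to all libraries of a gene would go unseen. The first principal component held 81.0% of the variance and separated the groups, and the second held 4.18% and set LG replicate 4 apart from the other libraries. Of 11710 genes tested, 3983 (34.0%) were higher and 3609 (30.8%) lower in HFHG at an adjusted p below 0.05 in limma, together 64.8%, so a call alone is common in this comparison. A 2-fold increase, here a log2 fold change over 1 together with p below 0.05 before adjustment, was met by 431 genes (3.68%), and the matching decrease by 193 genes (1.65%). In 6936 tested genes (59.2%) the FPKM of the groups did not overlap.

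Of the 10 SLRPs, 6 were higher in HFHG than in LG, none was lower, 2 (Dcn and Ogn) were not called, and 2 (Kera and Omd) had too few reads to be tested. The 6 were Prelp, Aspn, Podn, Lum, Fmod and Bgn, and each of them also had groups that did not overlap. Prelp and Aspn passed the 2-fold increase. The rise was very uneven: Prelp was 6.50-fold higher and Bgn 1.20-fold higher, while the fold of decorin was 0.994 (95% confidence interval 0.956 to 1.03) except under quantile normalization, which placed it higher in HFHG. At an unadjusted p below 0.05, and in limma-voom, the number of lower SLRPs was also 0. Aspn reached the minimum for testing, an FPKM of at least 0.5 in 4 libraries, through its HFHG libraries alone, and so could be tested only if it differed. The median log2 fold change was 0.42 over the 8 tested SLRPs, Aspn among them, and 0.02 over all tested genes. Since the SLRPs were chosen with earlier results of these data known, these counts and medians are a description.

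**Figure D1:**
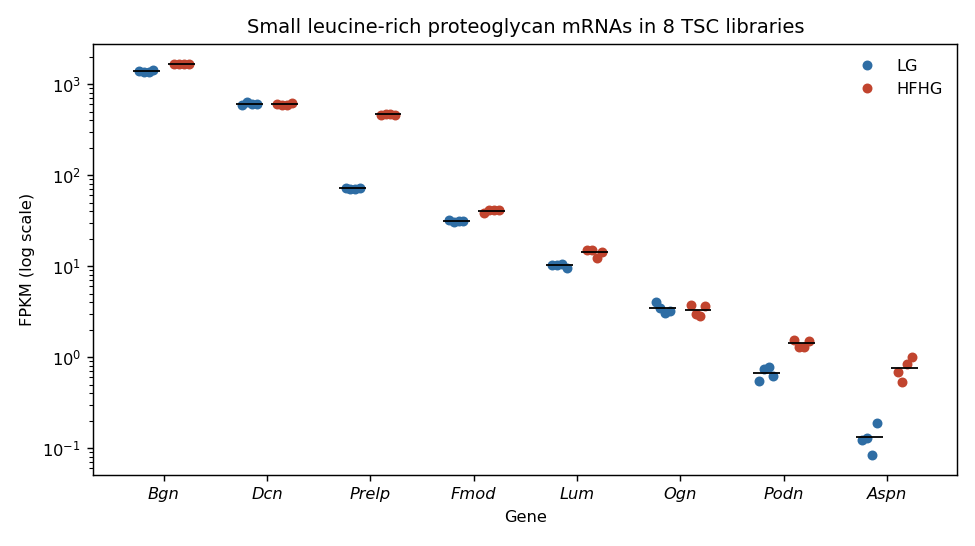
FPKM (y axis, log scale) of the 8 tested SLRPs (x axis) in the 4 HFHG and 4 LG libraries, with points for libraries and a black line for the group mean. Prelp lies between 459.8 and 469.1 in HFHG and between 69.7 and 73.2 in LG, while the decorin points of both groups share 1 range.

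Prelp, the proline and arginine-rich end leucine-rich repeat protein, showed the widest change. Its core has a basic end that binds heparin and heparan sulfate, and it is known as a link between basement membranes or cell surfaces and collagen. Prelp FPKM was 459.8, 469.1, 468.0 and 464.2 in HFHG and 72.4, 69.7, 70.8 and 73.2 in LG, in the order of replicates 1 to 4. Every HFHG library was far above every LG library, and the libraries of 1 group differed by a few percent. The means were 465 ± 4.23 and 71.5 ± 1.59 FPKM (SD, n = 4 each), and the log2 fold change was 2.70 (SE 0.0227, limma adjusted p = 6.18e-16). Only 15 of the 11710 tested genes had a larger log2 fold change. In level, 120 genes were more abundant than Prelp in HFHG and 938 in LG. These are bulk cultures, in which fewer cells of a type and less RNA per cell cannot be told apart.

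Stretches before the transcription start are shown for the called SLRPs at the ends of the range that have an entry in the RefSeq promoter table (GRCm38.p6), which held 8 of the 10 genes. The table has no entry for Dcn and Lum. They run 5′ to 3′ on the strand of the gene and stop before the transcript, and capitals mark the motifs found in them. Prelp, with the widest change, and Aspn, with the next, are set beside Fmod and Bgn, which changed least among the called SLRPs.
Prelp, chr1:133921415-133921651, minus strand: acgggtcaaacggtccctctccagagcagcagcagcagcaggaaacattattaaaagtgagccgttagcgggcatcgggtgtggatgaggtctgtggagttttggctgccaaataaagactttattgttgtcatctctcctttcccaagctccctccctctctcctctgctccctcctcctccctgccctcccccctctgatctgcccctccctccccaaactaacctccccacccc
Aspn, chr13:49544193-49544442, plus strand: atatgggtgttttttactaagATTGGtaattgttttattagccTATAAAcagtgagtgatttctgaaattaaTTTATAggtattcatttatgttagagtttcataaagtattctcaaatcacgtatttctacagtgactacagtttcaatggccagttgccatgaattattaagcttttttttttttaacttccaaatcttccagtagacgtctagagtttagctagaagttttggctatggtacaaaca
Fmod, chr1:134037004-134037253, plus strand: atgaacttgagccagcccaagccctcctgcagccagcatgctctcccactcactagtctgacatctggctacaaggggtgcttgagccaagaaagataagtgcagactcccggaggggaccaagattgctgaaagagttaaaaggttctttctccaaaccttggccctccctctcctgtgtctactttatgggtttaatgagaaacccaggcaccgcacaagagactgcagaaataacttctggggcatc
Bgn, chrX:73483351-73483600, plus strand: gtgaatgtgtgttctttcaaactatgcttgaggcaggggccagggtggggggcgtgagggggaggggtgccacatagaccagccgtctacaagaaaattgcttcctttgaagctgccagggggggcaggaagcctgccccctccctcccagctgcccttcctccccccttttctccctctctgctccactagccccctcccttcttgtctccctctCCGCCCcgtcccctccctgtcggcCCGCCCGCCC
The motifs were searched on both strands. Among all 32851 promoters of the table, the TATA box (letters TATAAA) was present in 12.4% and the CCAAT box in 33.8%. The GC box (letters GGGCGG) was present in 32.7% and the E-box (letters CACGTG) in 6.02%. The DR1 element, a direct repeat bound by nuclear receptors that respond to fatty acids, was searched as a pair of AGGTCA with any 1 base between and was present in 0.0335%. The Prelp and Fmod stretches held none of them. Aspn held TATAAA 207 bases upstream and, on the opposite strand, 178 bases upstream, with CCAAT on the opposite strand at 229 bases. Bgn held GGGCGG on the opposite strand at 34, 10 and 6 bases, the last pair overlapping in the run of capitals. The stretches also differed in base composition, with 30.0% G and C in Aspn, 51.2% in Fmod, 56.5% in Prelp and 64.4% in Bgn, against a median of 52.4% over all promoters. A match is a description of these letters, and the absence of one says only that the letters are not in this window.

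Decorin and biglycan are the closest relatives in the family, class I cores that carry chondroitin or dermatan sulfate. Biglycan was the most abundant SLRP in every library. Its FPKM was 1659, 1684, 1685 and 1658 in HFHG and 1379, 1372, 1375 and 1436 in LG. All HFHG libraries lay above all LG libraries, and LG replicate 4 was the highest of its group. The means of 1671 ± 15.0 and 1390 ± 30.4 FPKM (SD, n = 4 each) gave a log2 fold change of 0.27 (SE 0.0206, limma adjusted p = 1.72e-07). Only 16 genes in HFHG and 27 in LG were more abundant.

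Decorin FPKM was 612, 589, 594 and 624 in HFHG and 597, 631, 606 and 600 in LG, and the groups overlapped throughout. The means were 605 ± 16.0 and 609 ± 15.6 FPKM (SD, n = 4 each), and the log2 fold change was -0.01 with a 95% confidence interval of -0.06 to 0.05 (limma adjusted p = 0.768; exact two-sided permutation p = 0.743). Counting error was small, with 184924 reads of Dcn over the HFHG libraries and 181427 over the LG libraries. The interval rests on the spread between libraries and does not cover the choice of scaling. The direction depends on the scaling: quantile normalization gave a log2 fold change of 0.28 with an adjusted p of 1.48e-06, higher in HFHG.

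Asporin, a class I core without a glycosaminoglycan attachment site that binds collagen and TGF-beta, had low levels. Aspn FPKM was 0.682, 0.540, 0.850 and 0.9997 in HFHG and 0.124, 0.129, 0.0839 and 0.191 in LG. These rest on 60, 45, 72 and 86 reads in HFHG and 10, 11, 7 and 16 reads in LG. Every HFHG library was above every LG library. The fitted log2 fold change was 1.89 (SE 0.207, limma adjusted p = 4.43e-06) on the log2(FPKM + 0.1) scale, which understates the change of a low gene. Aspn passed the filter through its HFHG libraries alone, so this p-value was conditional on a difference and is no separate support for it. The ratio of read rates, 263 against 44 reads, was 5.83 with a 95% interval of 4.22 to 8.21 that covers counting error only.

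**Figure D2:**
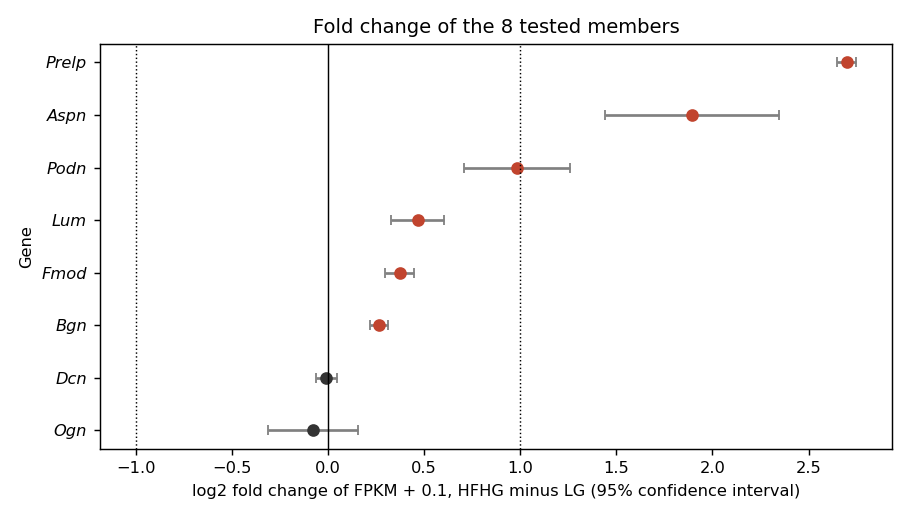
Log2 fold change of HFHG over LG (x axis) with 95% confidence intervals for the 8 tested SLRPs (y axis), called genes in red, genes not called in dark grey, and dotted lines at 1 and -1. Prelp at 2.70 and Aspn at 1.89 lie beyond 1, Podn at 0.98 lies at the line, and the intervals of Dcn and Ogn span 0.

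Fibromodulin and lumican are class II cores that carry keratan sulfate and compete for the same stretch of type I collagen, and loss of fibromodulin is known to weaken tendon. Fmod FPKM was 38.2, 41.6, 41.7 and 41.2 in HFHG and 32.1, 30.8, 31.1 and 31.5 in LG. All HFHG libraries were above all LG libraries, with HFHG replicate 1 the lowest of its group. The means were 40.7 ± 1.67 and 31.4 ± 0.553 FPKM (SD, n = 4 each), and the log2 fold change was 0.37 (SE 0.0343, limma adjusted p = 8.70e-07).

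Lum FPKM was 15.0, 15.1, 12.4 and 14.3 in HFHG and 10.3, 10.3, 10.7 and 9.55 in LG. HFHG replicate 3 was the lowest of its group and still above every LG library. The means of 14.2 ± 1.27 and 10.2 ± 0.477 FPKM (SD, n = 4 each) gave a log2 fold change of 0.47 (SE 0.0629, limma adjusted p = 2.93e-05). The ratio of Fmod to Lum was 2.89 ± 0.350 in HFHG and 3.08 ± 0.165 in LG (SD, n = 4 each), with groups that overlapped.

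Keratocan, the keratan sulfate core of the cornea, and osteomodulin, a core of mineralised tissue, were close to absent. Kera had 0, 4, 1 and 2 reads in HFHG and 5, 0, 0 and 3 in LG. No group was higher: the ratio of read rates was 0.853 with a 95% interval of 0.263 to 2.69. Omd had 2, 6, 0 and 1 reads in HFHG and 0, 0, 1 and 2 in LG, with a ratio of 2.92 and an interval of 0.730 to 16.8. The exact two-sided permutation p was 0.83 for Kera and 0.543 for Omd (n = 4 each). Each gene was at 0 in 3 libraries, where a count of 0 allows up to 0.0381 to 0.0402 FPKM of Kera and 0.0405 to 0.0429 FPKM of Omd. A change of either gene was not detectable at this depth.

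Osteoglycin, a class III core, was low and did not separate the groups. Ogn FPKM was 3.73, 3.01, 2.81 and 3.62 in HFHG and 4.07, 3.51, 3.09 and 3.23 in LG. The means were 3.30 ± 0.451 and 3.48 ± 0.436 FPKM (SD, n = 4 each), and the log2 fold change was -0.08 with a 95% confidence interval of -0.31 to 0.16 (limma adjusted p = 0.547; exact two-sided permutation p = 0.571).

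Podocan, a class V core known to bind type I collagen and to restrain the growth of smooth muscle cells, was also low. Podn FPKM was 1.55, 1.31, 1.31 and 1.51 in HFHG and 0.543, 0.735, 0.789 and 0.623 in LG, without overlap. The means were 1.42 ± 0.128 and 0.672 ± 0.110 FPKM (SD, n = 4 each), and the log2 fold change was 0.98 (SE 0.127, limma adjusted p = 1.96e-05). The ratio of read rates, from 643 against 297 reads, was 2.11 with a counting interval of 1.84 to 2.43. In GRCm38 with GENCODE M21, Podn (chromosome 4, 108014791 to 108096445, minus strand) overlaps Scp2 on the same strand, a gene at 26.1 to 34.6 FPKM. In RefSeq the stretches before the Podn starts lie at 108032204 or below, short of Scp2, which begins at 108043839. The annotation used for counting is not given, so the level of Podn is uncertain only if that annotation spans Scp2.

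**Figure D3:**
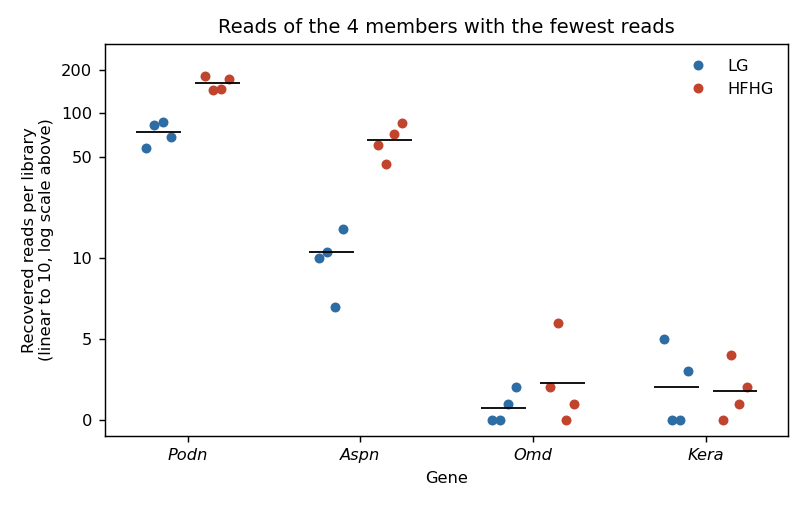
Reads per library (y axis, linear up to 10 and logarithmic above) of the 4 SLRPs with the fewest reads (x axis), in the HFHG and LG libraries, with points for libraries and a black line for the group mean. Podn and Aspn separate the groups, and Kera and Omd stay at 6 reads or fewer in every library.

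Because a few genes hold nearly all of the SLRP transcripts, the make-up of the family changed with them. The sum of the 10 genes was 2802 ± 8.08 FPKM in HFHG and 2116 ± 27.1 FPKM in LG (SD, n = 4 each), or 0.736% and 0.514% of all reads. Prelp made up 57.4% and Bgn 41.0% of the difference of 685 FPKM. Without these 2 genes the sums were 665 ± 16.3 and 654 ± 15.2 FPKM, and the groups overlapped. Most of this remaining sum was Dcn, at means of 605 FPKM in HFHG and 609 in LG. Fmod, Lum, Podn and Aspn, which hold little of it, were each higher in HFHG without overlap. As shares of the summed FPKM, Prelp was 16.6% ± 0.118 in HFHG and 3.38% ± 0.0686 in LG, Bgn 59.7% ± 0.489 and 65.7% ± 0.781, and Dcn 21.6% ± 0.583 and 28.8% ± 0.817 (SD, n = 4 each). A lower share of Bgn stood beside a higher level, since shares of 1 sum cannot move independently.

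**Figure D4:**
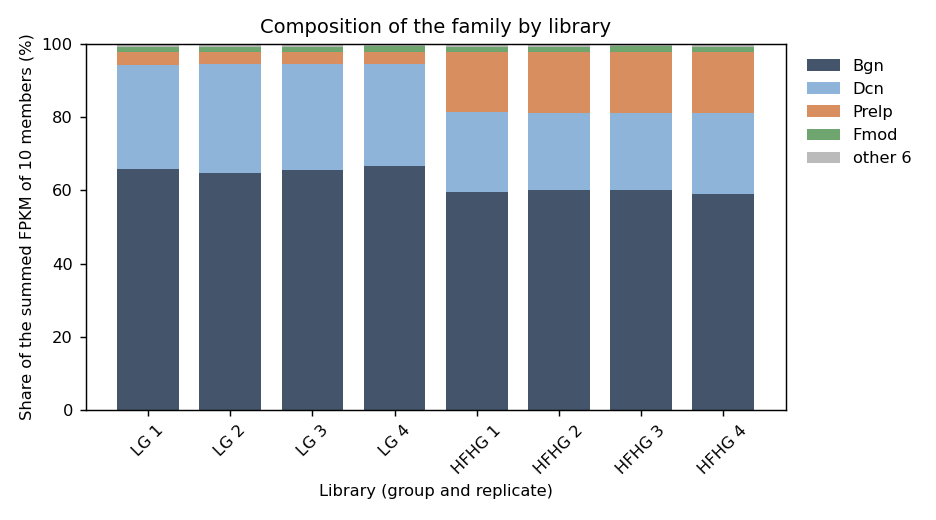
Share of the summed FPKM of the 10 SLRPs (y axis, percent) in each of the 8 libraries (x axis), stacked by gene. Prelp takes 16.5% to 16.7% in the HFHG libraries and 3.29% to 3.46% in the LG libraries, and Bgn is the widest band in all 8.

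Ratios between members do not depend on a factor that scales a whole library, but they do change under quantile normalization, and 4 were compared with exact two-sided permutation tests, whose smallest possible p is 0.0286. The ratio of Bgn to Dcn was 2.77 ± 0.0968 in HFHG and 2.29 ± 0.0916 in LG (SD, n = 4 each), a log2 difference of 0.27 without overlap (exact permutation p = 0.0286, adjusted p = 0.0381 over the 4 ratios). The ratio of Aspn to Dcn was higher in HFHG by 2.57 on the log2 scale, with the same p values. Lum to Dcn was 0.0235 ± 0.00210 and 0.0168 ± 0.000806, a log2 difference of 0.48, again with the same p values. Fmod to Lum differed by -0.10 on the log2 scale (exact permutation p = 0.314, adjusted p = 0.314). After quantile normalization of log2(FPKM + 0.1), an alternative chosen after seeing the data, the differences of Bgn to Dcn and Lum to Dcn shrank to 0.0781 and 0.177 on the log2 scale, the groups overlapped and neither passed the test (exact permutation p = 0.114 and 0.0857, n = 4 each). Aspn to Dcn was then 1.38 without overlap (exact permutation p = 0.0286). The ratio of Ogn to Omd could not be formed, since Omd was at 0 in some libraries.

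The SLRP genes lie in 3 clusters, with Podn and Bgn apart. In GRCm38, Dcn (chromosome 10, 97479609 to 97518143), Lum (97565128 to 97572703) and Kera (97606879 to 97613692) follow each other on the plus strand, with gaps of 46.984 and 34.175 kb. Within these 3 neighbours, Dcn was not called, Lum rose and Kera was close to absent. On chromosome 13, Aspn (49544443 to 49567565), Omd (49582462 to 49592822) and Ogn (49608046 to 49624501) lie on the plus strand with gaps of 14.896 and 15.223 kb, and of them Aspn alone was called. All 3 lie inside Cenpp on the opposite strand, a gene at 0.0269 to 0.0939 FPKM. Prelp (chromosome 1, 133910304 to 133921414, minus strand) and Fmod (134037254 to 134048277, plus strand) lie 115.839 kb apart and both rose, by very different amounts. An antisense gene that overlaps Prelp, Gm15851, was not analysed here, and whether the counting used the strand is not given in the sources used here. Bgn lies on chromosome X (73483602 to 73495933, plus strand). The family genes next to these clusters were too low to be tested and overlapped between the groups, with 34 and 13 reads of Ecm2, 112 and 124 of Epyc (epiphycan) and 261 and 227 of Optc (opticin) summed over the HFHG and LG libraries.

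SLRPs act on collagen fibrils, so the fibril collagens were set beside them. This list and those below were also chosen with earlier results of these data known. For comparison with their counts, 34.0% of all tested genes were higher and 30.8% lower in HFHG. Of 12 collagen genes, 11 were tested, 10 were higher and 1 (Col5a3, named after its value was seen) was lower in HFHG, and the median log2 fold change of the list was 1.09 against 0.02 over all tested genes, and 6 passed the 2-fold increase. Col12a1, a fibril-associated collagen, was 142 ± 4.88 FPKM in HFHG and 34.1 ± 3.21 in LG (SD, n = 4 each), and the log2 fold change was 2.06 (limma adjusted p = 1.16e-11). Col6a1, of the beaded filaments that bind biglycan and decorin, rose by a log2 fold change of 1.65 (adjusted p = 8.45e-13), and Col5a1, which starts the assembly of type I fibrils, by 1.45 (adjusted p = 5.01e-12). Relative to Col1a1, the main chain of tendon collagen, decorin was 1.14 ± 0.0396 in HFHG and 2.95 ± 0.107 in LG, and biglycan 3.16 ± 0.0521 and 6.75 ± 0.197 (SD, n = 4 each). Prelp moved the other way, from 0.347 ± 0.00766 in LG to 0.879 ± 0.0125 in HFHG. These ratios to Col1a1 were chosen after the values had been seen and are given without a test.

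Related leucine-rich repeat genes and other proteoglycans gave a mixed picture. Among 10 further leucine-rich repeat genes 3 were tested: Islr rose by 0.88 (adjusted p = 1.73e-09) and Podnl1, the closest relative of podocan, by 0.32 (adjusted p = 0.00233), while Tsku, a secreted regulator of growth factor signals, fell by 0.30 on the log2 scale (adjusted p = 2.91e-07, all from limma). Of 21 other proteoglycan core proteins 15 were tested, 10 were higher and 4 lower, with a median of 0.23. The cell surface heparan sulfate cores Gpc4 (0.77, adjusted p = 1.74e-10) and Sdc4 (0.67, adjusted p = 3.17e-10) rose. Prg4, the lubricin of gliding tendon surfaces, was 90.4 ± 3.804 FPKM in HFHG and 146 ± 2.68 in LG (SD, n = 4 each), and fell by 0.69 on the log2 scale (adjusted p = 9.86e-10).

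The chains and modifications of SLRPs are made by separate enzymes. Of 23 genes for the linker and for chondroitin and dermatan sulfate, 22 were tested, 15 were higher and 4 lower, with a median of 0.19. The sulfotransferases moved in both directions: Chst11, which sulfates chondroitin at the 4 position, fell by 1.04 on the log2 scale (8.38 ± 0.309 against 17.3 ± 0.691 FPKM, limma adjusted p = 5.85e-10), while Chst7 rose by 1.002 (adjusted p = 7.90e-07) and Chst12 by 0.80 (adjusted p = 2.98e-09). For keratan sulfate, the chain of fibromodulin, lumican and keratocan, 10 of 12 genes were tested, 8 were higher and 1 lower, with a median of 0.29. The keratan sulfotransferase Chst1 was 3.27 ± 0.181 FPKM in HFHG and 0.984 ± 0.188 in LG (SD, n = 4 each), and the log2 fold change was 1.65 (adjusted p = 1.23e-07), and Chst2 rose by 0.91 (adjusted p = 9.05e-06). B3gnt2, which extends the sugar backbone, fell by 0.53 on the log2 scale (adjusted p = 4.47e-07). Of 13 genes for sulfate and sugar donors and tyrosine sulfation, 12 were tested, 7 were higher and 3 lower, with a median of 0.15. Tpst1, which sulfates tyrosines such as those at the start of fibromodulin, rose by 0.93 (adjusted p = 3.42e-08) and the sugar transporter Slc35d1 by 0.60 (adjusted p = 8.70e-05), while Ugp2, which makes UDP-glucose, fell by 0.67 on the log2 scale (adjusted p = 1.54e-10).

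Genes whose products process or bind SLRPs follow. Of 15 proteases and their enhancers 12 were tested, 7 were higher and 4 lower, with a median of 0.37. Bmp1, which cuts the propeptide from decorin, biglycan and osteoglycin, rose by 0.56 (adjusted p = 5.19e-09), and the aggrecanases Adamts5 (0.89, adjusted p = 2.93e-11) and Adamts1 (0.86, adjusted p = 1.48e-10) rose as well. Mmp13, a collagenase known to cleave fibromodulin, was 1421 ± 21.5 FPKM in HFHG and 2652 ± 73.9 in LG (SD, n = 4 each), and fell by 0.90 on the log2 scale (adjusted p = 5.89e-12). Of 24 receptors and ligands 21 were tested, 9 were higher and 9 lower, with a median of 0.06. Tgfb2, among the higher, reached the minimum for testing through its HFHG libraries alone (0.827 to 1.02 FPKM, against 0.212 to 0.401 in LG). Tgfb3, a growth factor that decorin, biglycan and fibromodulin bind, was 30.0 ± 0.494 FPKM in HFHG and 9.48 ± 0.382 in LG, a log2 fold change of 1.65 (adjusted p = 2.22e-12), and Bmp6 rose by 0.83 (adjusted p = 1.57e-07). P2rx4, of the purinergic receptors that biglycan engages, fell by 0.82 on the log2 scale (adjusted p = 3.15e-09). Tlr2 and Tlr4, the receptors through which soluble biglycan and decorin signal, fell by 0.27 and 0.32 on the log2 scale (limma adjusted p = 0.000173 and 4.47e-05).

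**Figure D5:**
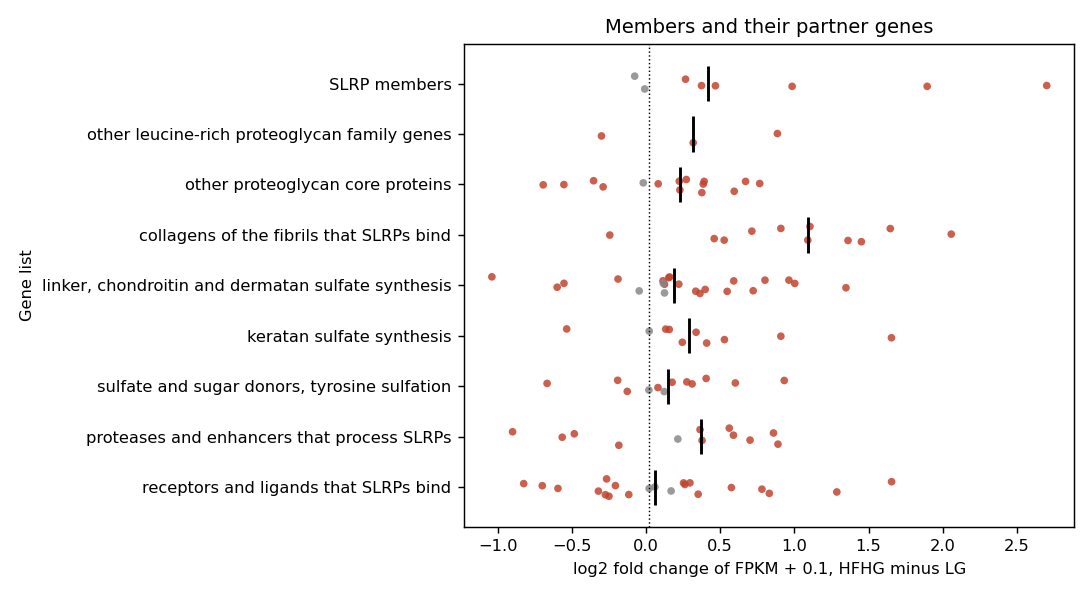
Log2 fold change of HFHG over LG (x axis) of the tested genes in the SLRP list and in each list of related genes (y axis), red for an adjusted p below 0.05 and grey otherwise, with a black bar at the list median and a dotted line at the median of all tested genes. Collagens have the highest list median, 1.09, and receptors and ligands lie on both sides of 0.

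The genes most like Prelp over the 8 libraries, by Pearson r of log2(FPKM + 0.1), were Fbln1 (fibulin-1, a matrix glycoprotein), Adm (adrenomedullin, a vasoactive peptide) and Prkar2b (a regulatory subunit of protein kinase A), each at r = 0.9998. Their log2 fold changes were 1.64, 0.97 and 1.79. The 8 points fall into the 2 groups, and 440 of 10671 genes had an r above 0.99. For Ogn, with the lowest log2 fold change of the tested SLRPs, the most alike were Scamp3 (0.954), Arhgef10l (0.915) and Pold3 (0.899). These were the highest of 10671 correlations over 8 points. Neither Ogn nor any of these genes was called, so no shared regulation can be read from them.

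Markers of the labelled cell type and of other cells were read beside these results. Of 7 tendon cell markers, all tested, 6 were higher and 1 (Mkx) lower in HFHG. Their summed level was 1522 to 1568 FPKM in HFHG and 815 to 833 in LG, most of it Col1a1, Col1a2 and Thbs4. Scx and Tnmd, the defining markers of tendon cells, were present at low levels, with means of 2.27 and 1.10 FPKM in HFHG and 1.45 and 0.614 in LG. Mkx, the lower marker, had means of 6.73 FPKM in HFHG and 8.62 in LG. Macrophage and leukocyte markers were abundant: of 8, 7 were tested, 6 were lower and 1 was not called, and their sum was 1746 to 1797 FPKM in HFHG and 1924 to 2007 in LG, most of it Lyz2, with Cd163 near 0. Mesenchymal stem cell markers summed to 1455 to 1490 FPKM in HFHG and 1173 to 1183 in LG (of 7 tested, 5 higher and 2 lower), and mural and smooth muscle markers to 7.58 to 8.81 and 3.94 to 4.66 (of 6, 2 were tested and both were higher, with Kcnj8 and Abcc9 near 0). Of 6 adipocyte markers 1 was tested, and it was higher (Fabp4, 68.4 against 26.6 FPKM), with Adipoq, Plin1, Cidec and Lep near 0. The keratocyte, osteoblast and osteocyte, and skeletal muscle lists each summed to less than 3 FPKM in every library. The part of these cells in the SLRP results was not tested.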

How the data were processed

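Messenger RNA of primary TSCs was sequenced from a stranded library, 4 HFHG and 4 LG replicates. The authors deposited FPKM values per gene and replicate, not pooled. The submitters' processing notes name HISAT2 2.1.0 and mm10. The counting program, annotation and filters are not given in the sources used here. Samples were grouped by their labels.

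Reads behind each FPKM were recovered with the smallest gene length that makes them whole (19301 of 19301 genes, tolerance 1e-06, by construction). The totals were 34308108 to 37362725 per library. Tests covered genes that reached an FPKM of 0.5 in 4 or more of the 8 libraries and used log2(FPKM + 0.1) with limma 3.58.1 (lmFit, eBayes with a trend) in R 4.3.3, without covariates and with Benjamini-Hochberg adjustment over all 11710 genes. Single values were compared by exact two-sided permutation over 70 arrangements. On simulated data of 11436 genes, 187 of 197 changed genes were found and 12 unchanged genes were called. The simulation gave every gene the same dispersion and changed a far smaller share than the 64.8% called here. It therefore does not give the error rate of the reported calls. Intervals of read rate ratios and floors (3 reads) are at 95% and cover counting error only. Intervals of fold changes are 95% intervals from limma and rest on the spread between libraries.

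Named genes were all 10 SLRPs, up to 3 called genes per related list with the largest absolute log2 fold change and a mean of at least 1 FPKM, list members needed to define a list, and the 3 genes most like the SLRPs with the highest and the lowest log2 fold change. Named outside this rule were Col5a3, Tgfb2, neighbouring or overlapping genes (Ecm2, Epyc, Optc, Scp2, Cenpp, Gm15851) and cell markers. Tlr2, Tlr4, Bmp1 and Col1a1 were named to define their lists. The SLRPs and all lists were chosen with earlier results of these data known. The alternatives were other pseudocounts, filters and scalings, limma-voom on the recovered reads, a replicate block and leaving out each library. Replicate numbers were not treated as pairs. Promoters came from RefSeq, and gene positions from GENCODE M21.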

Additional observations from a re-analysis of the deposited data

Results flagged for a closer look

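In 28 groups of 4 libraries examined (members and ratios in either group), 2 held a library far from the other 3 by Dixon's criterion, and chance alone gives about 1 in 20 groups. Bgn was 1436 FPKM in LG replicate 4, where the other LG libraries had 1372 to 1379. Without that library the log2 fold change of Bgn was 0.28 (limma adjusted p = 7.77e-09). Fmod was 38.2 FPKM in HFHG replicate 1, where the other HFHG libraries had 41.2 to 41.7. Without it the log2 fold change of Fmod was 0.40 (limma adjusted p = 5.03e-07).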

How the results depend on the processing

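Of 267 values recomputed under alternatives, 258 kept their direction and side of the threshold or stayed within 1.5 times the count. These include the replicate block for the 4 ratios, which repeats the main difference by construction and was not tested. Another 4 changed sign without being called under either setting: Dcn with rescaling to the same sum (0.05), without HFHG replicate 2 and without LG replicate 2, and Ogn without LG replicate 1. Dcn reversed under quantile normalization, with a log2 fold change of 0.28. The same setting, for ratios chosen after seeing the data, left the log2 differences of Bgn to Dcn (0.0781) and Lum to Dcn (0.18) short of the test's threshold, and the cause was not tested. The count of SLRPs past a 2-fold increase, 2 as reported, was 1 with a pseudocount of 1 and 1 with a minimum FPKM of 1, where Aspn was not tested. It was 3 with a pseudocount of 0.01, with rescaling to the same sum and with limma-voom with and without the filter, where the log2 fold change of Podn was 1.04 to 1.08. It was 2 to 3 when each library was left out in turn, since that of Podn ranged from 0.90 to 1.06, and passed 1 without HFHG replicate 2 or 3 or LG replicate 2 or 3. The number of SLRPs called higher was 5 with a minimum FPKM of 1 and 7 with quantile normalization, which added Dcn, and 6 otherwise, whichever library was left out. The log2 fold change of Aspn ranged from 0.64 with a pseudocount of 1 to 2.51 with limma-voom. Limma-voom on the recovered reads called 4104 genes higher and 3678 lower, against 3983 and 3609 as reported. Limma-voom without a filter, an alternative chosen after seeing the data, called 6 of the 10 SLRPs higher. Counts in the related lists also moved with the scaling. For the linker, chondroitin and dermatan sulfate genes, 15 higher became 12 with median-ratio scaling and 16 with rescaling to the same sum. For the other proteoglycan core proteins, 10 higher became 8 with median-ratio scaling. The collagens kept 10 higher in both.

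Same-numbered libraries of the groups did not deviate together (correlations of -0.0736 to -0.00558), so no sign of pairing was seen. This cannot exclude that same-numbered cultures shared animals or a preparation. With the replicate number as a block 7342 genes were called instead of 7592, and 6 SLRPs were higher, as without it. Kera and Omd are limited by depth, at 0 to 6 reads a library.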
